A study of Mus musculus with 2 samples.

Results

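The Hox genes of mouse form 4 clusters, Hoxa, Hoxb, Hoxc and Hoxd, and 39 of the 28692 genes counted in single cells of the ventral parafacial region carry a symbol of Hoxa, Hoxb, Hoxc or Hoxd followed by digits only. These 39 genes were taken whole, and their unique molecular identifiers (UMIs, each standing for 1 captured RNA molecule) were summed by gene, by paralogue group and by cell class. The tissue was microdissected from the ventral surface of the medulla beside the facial nucleus, dissociated, and captured with 10x Genomics version 2 chemistry, which counts the 3′ ends of polyadenylated RNA. There were 2 libraries, and each pooled 8 C57BL6/J mice of 10 days (4 male and 4 female). The untreated library carried the condition WT and batch 1. The 4OH-tamoxifen library came from C57BL6/J mice given 0.2 mg of 4OH-tamoxifen daily for 3 days and carried batch 2. With 1 library per condition, treatment and batch cannot be told apart, cells are not replicates, and no difference between the libraries has a replicate check. All intervals are exact 95% intervals that cover counting error only.

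Hox genes encode transcription factors that bind DNA through a homeodomain. Within each cluster the genes are numbered by paralogue group from the 3′ end, and groups with low numbers are switched on earlier in development and reach further forward in the neural tube than groups with high numbers. In the hindbrain, the members of the first groups mark segments called rhombomeres, and the members of later groups mark the hindmost hindbrain and the spinal cord. Neurons and glia can keep part of this code after the segments have disappeared.

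After removal of doublets, of barcodes with under 800 genes, over 50 hemoglobin UMIs or over 20% mitochondrial UMIs, 3339 cells of the untreated library and 8558 of the 4OH-tamoxifen library remained, with medians of 3628 and 2411 UMIs. The 2 libraries shared 32 barcodes among these cells. Cells entered a class by the UMIs of 1 marker with the markers of the other classes under their minimum, except that Nmb-gated cells could hold Slc17a6, with a UMI of it in 80% and 78.2% of them, and the Dcn and Kcnj8 gates set no limit on Pdgfra or Nmb. Neurons also needed UMIs of at least 2 of Snap25, Syp, Tubb3 and Elavl2. The Nmb, Slc17a6, Slc32a1 and Chat classes (retrotrapezoid, other glutamatergic, inhibitory and cholinergic neurons) held 25 and 55, 22 and 84, 81 and 307, and 21 and 92 cells in the untreated and 4OH-tamoxifen libraries. The Aqp4 (astrocyte), Pdgfra (oligodendrocyte precursor), Mog (oligodendrocyte), C1qa (microglia) and Cldn5 (endothelial) classes held 811 and 1752, 302 and 618, 433 and 1354, 329 and 492, and 258 and 392. Each class was checked against its full marker list, and a marker counted when it was at least 2-fold higher in its own class and had a UMI in at least 10% of its cells. All 7 genes of the Nmb list, all 4 of the Slc32a1 list and all 5 of the Chat, Aqp4, Pdgfra, C1qa and Cldn5 lists passed. In the Mog list 4 of 5 passed, since Mbp was also high outside the class, and in the Slc17a6 list 1 of 3, since Slc17a7 and Slc17a8 were found in few of its cells, which are therefore called Slc17a6-gated neurons.

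The members counted were almost all of the first paralogue groups. Of the 39 genes, 19 had a UMI in filtered cells, 11 had at least 20, and 20 had none, in these cells or in any barcode. The 12 members of paralogue groups 1 to 4 gave 1701 of the 1741 Hox UMIs (97.7%), and the 3 members of group 5 gave 31. The 24 members of groups 6 to 13, which mark levels of the spinal cord, gave 9 UMIs, from Hoxa7 (2 UMIs), Hoxc8 (2 UMIs), Hoxd8 (4 UMIs) and Hoxd11 (1 UMI). The clusters took unequal shares: Hoxa 39.7%, Hoxb 38.4%, Hoxd 20.7% and Hoxc 1.09% of the Hox UMIs, where no Hoxc gene reached 20 UMIs and Hoxc4, with 14, came closest. Of the members just above and below that line, Hoxa5 had 20 UMIs and Hoxc4 14. Because 3′ ends were counted, these numbers do not scale with gene length, and differences between genes also hold how well each 3′ end was captured. The annotation gives Hoxd3 and Hoxd4 388 shared exon bases on the same strand, so reads there could belong to either gene. The pair Hoxc5 and Hoxc10 shares 166.

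Members of group 2 were the most widely counted. Hoxb2, which facial motor neurons need to develop, had 166 and 226 UMIs in 150 and 225 cells of the untreated and 4OH-tamoxifen libraries. Hoxa2, whose expression reaches furthest forward in the embryo, had 106 and 173 UMIs in 99 and 170 cells. Hoxa3 had 107 and 165 UMIs, Hoxb3 81 and 153, Hoxd1 78 and 89, and Hoxd4 72 and 89. Most cells with a Hox UMI held a single member: 146 of 187 neurons and 762 of 815 non-neuronal cells.

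All Hox genes together made up 103 CPM (UMIs per 1000000 UMIs of the class) in neurons of the untreated library (85.2 to 123) and 67.6 in those of the 4OH-tamoxifen library (57.9 to 78.5). In the gated non-neuronal cells the values were 38.2 (34.5 to 42.1) and 30.8 (28.2 to 33.5). The ratio of neurons to non-neuronal cells was 2.70 (2.18 to 3.32) and 2.20 (1.84 to 2.61), so the sum over neurons was higher in both libraries. Over both libraries it was 2.34 (2.04 to 2.67), and 3.86 among cells under the stricter mitochondrial limit of 10%. The ratio depends on the mix of classes and does not hold for each class. Over both libraries, neurons had 78.5 CPM (69.8 to 88.1) and Aqp4-gated cells 74.3 (67.8 to 81.3). Nmb-gated and Chat-gated neurons, at 19.2 and 22.8, lay below Pdgfra-gated cells, at 45.1. Slc32a1-gated cells held 211 of the 291 Hox UMIs of neurons. Mog-gated cells, at 21.6 CPM, gave 12943679 of the 27341713 non-neuronal UMIs. The share of cells with a Hox UMI was 42.3% and 23.0% in neurons and 15.4% and 10.5% in non-neuronal cells. Neurons were the deeper cells, with medians of 7142 and 4029.5 UMIs against 3456 and 2439. After each cell was thinned to 2000 UMIs, with 45 neurons and 1564 non-neuronal cells too shallow to enter, the shares were 19.3% and 10.7% in neurons and 8.20% and 6.43% in non-neuronal cells.

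By class, the summed level was highest in inhibitory neurons in the untreated library, and in Slc17a6-gated neurons in the 4OH-tamoxifen library only with 1 cell that held 20 of the 47 Hox UMIs of the class. Slc32a1-gated cells had 154 Hox CPM in the untreated library (125 to 187) and 83.6 in the 4OH-tamoxifen library (68.8 to 101). Aqp4-gated astrocytes had 87.8 (76.5 to 100.3) and 65.8 (58.0 to 74.4), and Slc17a6-gated neurons 47.3 (22.7 to 87.1) and 104 (76.6 to 139). Without that cell the last value was 61.5 (40.5 to 89.5), below those of the Slc32a1 and Aqp4 classes. Pdgfra-gated precursors had 43.5 (31.7 to 58.2) and 46.4 (35.3 to 59.9). Mog-gated oligodendrocytes had 25.7 (21.1 to 31.1) and 19.6 (16.8 to 22.7), Cldn5-gated endothelial cells 16.1 (10.2 to 24.2) and 9.31 (5.21 to 15.4), and C1qa-gated microglia 5.76 (2.49 to 11.4) and 12.4 (7.09 to 20.2). Microglia come from the yolk sac and not from the neural tube, and their level is given for comparison. Free RNA was not measured. Dcn-gated fibroblasts had 25.3 (6.90 to 64.8) and 40.9 (13.3 to 95.4), and Kcnj8-gated pericytes 75.4 (34.5 to 143) and 64.02 (17.4 to 164), from 4 to 9 UMIs per library. In the untreated library the intervals of the Slc32a1 and Aqp4 classes stood apart from each other and from those of the Pdgfra, Mog, Cldn5 and C1qa classes, but the Kcnj8 interval overlapped both, and that of the Slc17a6 class (22.7 to 87.1) overlapped that of the Aqp4 class. In the 4OH-tamoxifen library the interval of the Slc32a1 class overlapped those of the Slc17a6 and Aqp4 classes, and that of the Aqp4 class overlapped that of the Pdgfra class. There the Kcnj8 and Dcn intervals overlapped those of the Slc32a1 and Aqp4 classes, and the C1qa interval overlapped those of the Mog and Cldn5 classes.

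**Figure D1:**
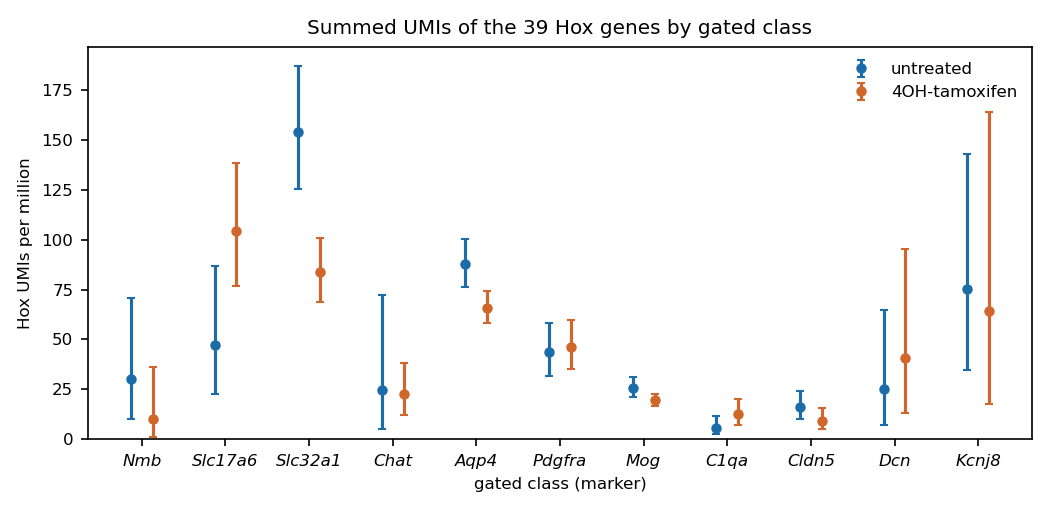
Summed Hox CPM of each class (y axis) for 11 gated classes (x axis), untreated in blue and 4OH-tamoxifen in orange, with exact Poisson 95% intervals. Slc32a1-gated neurons (154 and 83.6) and Aqp4-gated cells (87.8 and 65.8) stand above C1qa-gated cells (5.76 and 12.4) in both libraries.

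The 2 neuron classes of the ventral surface with the fewest Hox UMIs were the retrotrapezoid neurons and the cholinergic neurons. Of the Nmb-gated cells, 64% and 45.5% had a UMI of Gal and 80% and 78.2% one of Adcyap1. The class had 5 Hox UMIs in 25 untreated cells and 2 in 55 4OH-tamoxifen cells, or 30.3 (9.85 to 70.8) and 9.98 (1.21 to 36.1) CPM. The 7 UMIs were spread over 7 cells and came from Hoxb2 (3 UMIs), Hoxa2 (1 UMI), Hoxa3 (1 UMI), Hoxb3 (1 UMI) and Hoxd4 (1 UMI), with no group 1 or group 5 member among them. Chat-gated cells had 3 UMIs in 21 cells and 13 in 92, or 24.8 (5.10 to 72.3) and 22.4 (11.9 to 38.3) CPM. For all Hox genes the ratio of Nmb-gated to other gated neurons was 0.263 (0.0839 to 0.633) and 0.138 (0.0165 to 0.505), and that of Chat-gated to other gated neurons 0.221 (0.0448 to 0.661) and 0.277 (0.145 to 0.488). Nmb-gated and Chat-gated cells could not be told apart from each other at this depth, with a ratio over both libraries of 0.840 (0.292 to 2.16). Against C1qa-gated cells of the same library, the ratio for Nmb-gated cells was 5.26 (1.35 to 18.2) and 0.805 (0.0897 to 3.42), so they stood above the microglial level in the untreated library and could not be told from it in the other. With at most 10% mitochondrial UMIs per cell, the Nmb class kept no Hox UMI and the Chat class had 40.6 CPM over both libraries, and with the minimum of every gate raised by 1 UMI the Chat class had 7.57.

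**Figure D2:**
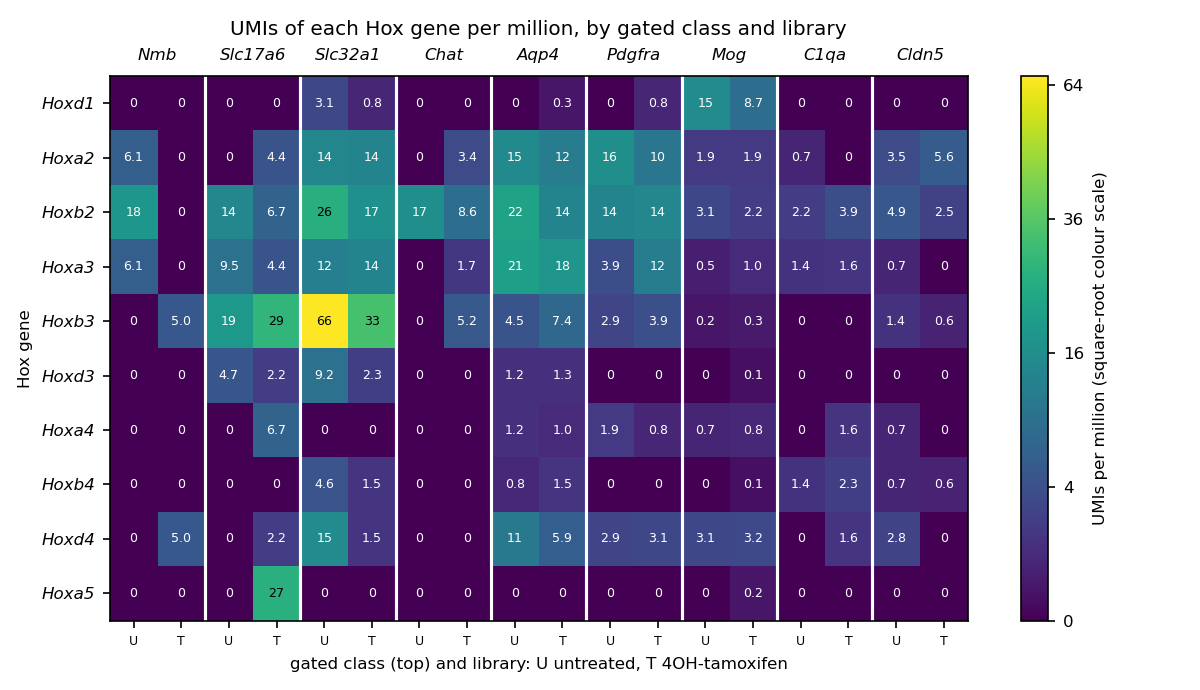
CPM for 10 Hox genes with at least 20 UMIs (rows) in 9 gated classes (column pairs; U untreated, T 4OH-tamoxifen), coloured on a square-root scale, each value printed. Hoxb3 peaks in Slc32a1-gated neurons, Hoxd1 in Mog-gated cells, and Hoxa3 and Hoxd4 are high in Aqp4-gated cells.

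For single members, a gene was called where its level differed at least 2-fold in the same direction in both libraries, with 0.5 UMI added to each sum, among genes with at least 20 UMIs in the cells compared. A gene could reach 20 UMIs through the 1 class where it was high, and its calls then restate where its UMIs lay. Between neurons and non-neuronal cells 10 members could be read, and 3 were called higher in neurons, Hoxb2, Hoxb3 and Hoxd3, while 22.7% of all 14713 genes read were called in that direction. Hoxd1 alone was called lower in neurons, against 17.9% of all genes. The members' shares were thus near those of all genes. With no UMI of another gate's marker allowed, or with 3 of the 4 neuron genes required, 1 member was called higher. Hoxb3 had 41.0 and 23.8 CPM in neurons, and its ratio of neurons to non-neuronal cells was 25.3 (14.2 to 47.0) and 10.6 (6.94 to 16.3). Hoxb2, which sat at the line in the 4OH-tamoxifen library, had a ratio of 2.51 (1.55 to 3.95) and 2.00 (1.28 to 3.03), and Hoxd3, with 7 and 4 UMIs in neurons, of 21.3 (4.87 to 128) and 4.39 (0.912 to 18.5).

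Hoxb3 was the most counted member of the inhibitory class. It had 43 UMIs in 29 of 81 Slc32a1-gated cells of the untreated library and 44 UMIs in 37 of 307 of the 4OH-tamoxifen library, or 66.2 (47.9 to 89.2) and 33.1 (24.1 to 44.5) CPM. Slc17a6-gated neurons held 18.9 and 28.8 CPM of Hoxb3, and their ratio to the Slc32a1 class was 0.286 (0.0745 to 0.787) and 0.870 (0.430 to 1.64), so the classes could not be told apart in the 4OH-tamoxifen library. At 2000 UMIs per cell, Hoxb3 was found in 14.8% (7.90 to 24.4) and 5.59% (3.23 to 8.93) of Slc32a1-gated cells and in 9.52% (1.17 to 30.4) and 6.58% (2.17 to 14.7) of Slc17a6-gated cells. In the Slc32a1 class, Hoxb2 followed with 26.2 and 16.6 CPM, Hoxa2 with 13.9 and 13.6, Hoxa3 with 12.3 and 13.6, Hoxd4 with 15.4 and 1.51, and Hoxd3 with 9.24 and 2.26. Of 4 members that could be read against the other gated neurons, Hoxa2 and Hoxb3 were called higher in the Slc32a1 class. Of all 10897 genes, 1.9% were called higher there. No member was called lower, against 4.44% of all genes. Hoxa2 and Hoxa3 reached the UMI minimum in neurons only through the Slc32a1 class. In the untreated library it held 9 of 10 neuronal UMIs of Hoxa2 and 8 of 11 of Hoxa3. In the 4OH-tamoxifen library it held 18 of 22 and 18 of 21. The call of Hoxa2 here, and those of Hoxa2 and Hoxa3 as lower in the Chat class, therefore restate that count. For this reason the share of members called cannot be set against 1.9%. The ratio for Hoxb3 was 8.24 (2.99 to 31.6) and 2.40 (1.34 to 4.48), or 3.62 over both libraries and 2.31 under the mitochondrial limit of 10%, and that for Hoxa2, with 1 and 4 UMIs in the other neurons, 6.90 (0.955 to 302) and 4.17 (1.37 to 17.0). In the reverse direction, Hoxb3 was called lower in the Nmb class (5.74% of all genes called lower) with 0 UMIs in 25 cells, which allows up to 18.2 CPM, and 1 UMI in 55 cells. Hoxa2, Hoxa3 and Hoxb3 met the rule for lower in the Chat class (4.95% of all genes), but the untreated class had 0 UMIs of each, which allows up to 24.8 CPM, and the 4OH-tamoxifen class 2, 1 and 3. For Hoxa2 and Hoxa3 the intervals of the ratio to the other neurons held 1 in each library, so a difference was not detectable at this depth in either, while for Hoxb3 the ratio was 0 (0 to 0.691) and 0.177 (0.0354 to 0.542). No member was called in the Slc17a6 class, where 1.53% of all genes were called higher and 1.84% lower. Nor was a member called higher in the Nmb class (2.93% of all genes) or the Chat class (7.24%).

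The 5 genes of the Mog list summed to 5600 and 7115 CPM in the Slc32a1 class, against 82515 and 76457 in Mog-gated cells, and the 5 of the Aqp4 list to 1314 and 1399 against 10322 and 9849. The 5 genes of the C1qa list summed to 46.2 and 77.6. Hoxd1, the Mog-class member, had 3.08 and 0.753 CPM in Slc32a1-gated cells. The part that RNA of other cells had in these neuronal values was not tested. Hoxb3 itself was at 0.240 and 0.342 CPM in Mog-gated cells and at 0 in C1qa-gated cells of both libraries.

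Inhibitory neurons did not share Hoxb3 evenly. Cells with a UMI of Cck, a peptide of interneurons, held 160 CPM of Hoxb3 in the untreated library (96.6 to 251, 15 cells) and 74.9 in the 4OH-tamoxifen library (41.0 to 126, 46 cells), against 45.2 and 26.3 in Slc32a1-gated cells without one. The ratio was 3.55 (1.84 to 6.76) and 2.85 (1.40 to 5.54). Cells with Tfap2b, a transcription factor of inhibitory neuron development, held 153 and 55.3 CPM of Hoxb3 against 47.0 and 30.0. Hoxb3 was lower with a UMI of Reln, which encodes a secreted glycoprotein, at 30.9 and 11.5 against 85.2 and 40.8, with a ratio of 0.363 (0.136 to 0.827) and 0.281 (0.0731 to 0.778). Over both libraries the same held with Prox1, at 19.0 against 53.0 (ratio 0.359, 0.166 to 0.697), and with Sst, at 26.8 against 58.2 (ratio 0.460, 0.275 to 0.747), while in the 4OH-tamoxifen library alone the intervals for Prox1 and Sst held 1. With Tfap2b the interval of the 4OH-tamoxifen library also held 1. These parts overlap, since 1 cell can hold UMIs of several of the genes. Cells with Cck or Tfap2b had fewer UMIs on average than Slc32a1-gated cells without them, in both libraries. Hoxd4 differed between the libraries with Ndnf, which encodes a secreted protein of interneurons: the 8 untreated cells with Ndnf held 7 of the 10 Hoxd4 UMIs of the untreated class, in 4 cells, and the 27 such cells of the 4OH-tamoxifen library held none.

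**Figure D3:**
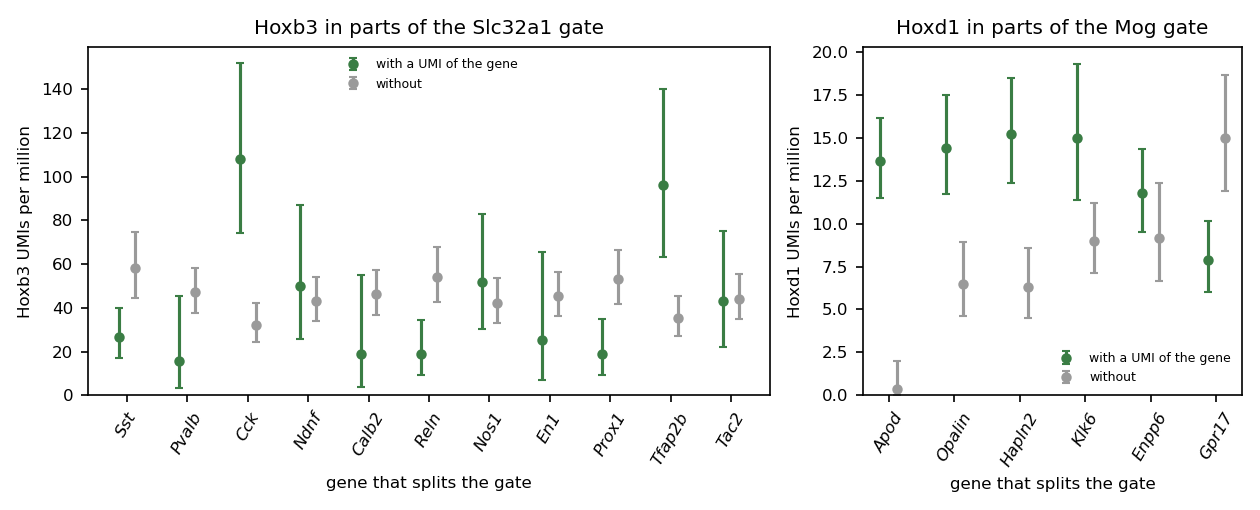
CPM of Hoxb3 in parts of the Slc32a1 gate (left) and of Hoxd1 in parts of the Mog gate (right), both libraries together, in cells with (green) and without (grey) a UMI of the gene on the x axis, with exact 95% intervals. Hoxb3 is higher with Cck (108 against 32.3) and Tfap2b (96.3 against 35.4), and Hoxd1 is nearly absent from cells without Apod (0.362 against 13.7).

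Group 5 was counted in the 4OH-tamoxifen library alone, with 16 of its 31 UMIs in Slc17a6-gated neurons and 13 of these in 1 cell. In the 4OH-tamoxifen library, Hoxb3 had 13 UMIs in 12 of 84 cells and Hoxa5, a gene of the posterior hindbrain and cervical levels, 12 UMIs in 2 cells, while the untreated library gave 4 Hoxb3 UMIs in 22 cells and no Hoxa5. The cell, of 12019 UMIs, held 20 Hox UMIs from 8 members: 10 of Hoxa5, 3 of Hoxc4, 2 of Hoxb5, and 1 each of Hoxb3, Hoxd3, Hoxa4, Hoxd4 and Hoxc5. It also had 5 Slc17a6 UMIs, 21 of Snap25 and 1 of Nmb, and none of Th. No Slc32a1-gated cell held over 7 Hox UMIs, and the Slc17a6 level over both libraries was 86.1 CPM with this cell and 56.9 without it. The 31 UMIs of group 5 lay in 17 cells: 3 Slc17a6-gated cells, 6 Mog-gated cells with 6 UMIs and 8 cells of no gate with 9. The untreated library had no group 5 UMI among 3339 cells, and the 4OH-tamoxifen library had 1.04 CPM (0.707 to 1.48). A count of 0 in the untreated library allows up to 0.177 CPM by the level of 3 UMIs and 0.217 by the exact interval.

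**Figure D4:**
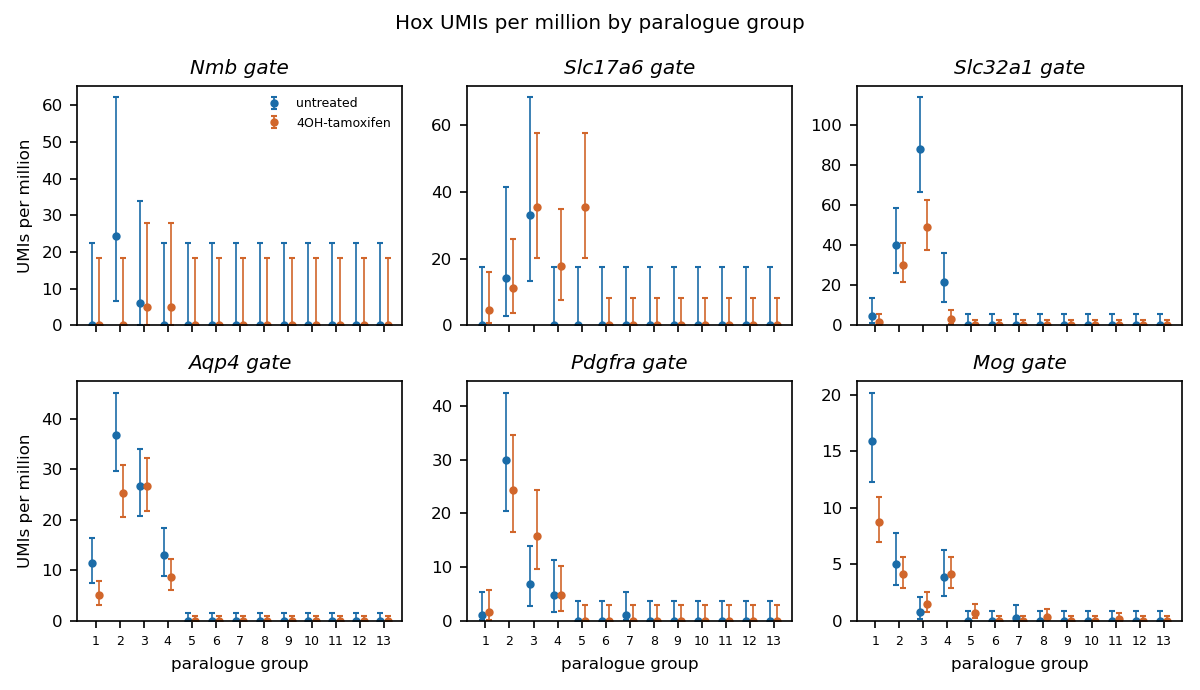
CPM of each paralogue group (x axis, 1 to 13) in 6 gated classes, untreated in blue and 4OH-tamoxifen in orange, with exact Poisson 95% intervals and y axes that differ. Group 3 leads in Slc32a1-gated neurons (87.8 and 49.0), group 1 in Mog-gated cells (15.9 and 8.77), and groups 6 to 13 are at or near 0 throughout.

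Astrocytes carried a broad code of groups 1 to 4. In Aqp4-gated cells, Hoxb2 had 21.8 (16.4 to 28.5) and 13.6 (10.2 to 17.8) CPM, Hoxa3 21.0 (15.7 to 27.6) and 17.9 (14.0 to 22.6), and Hoxa2 15.0 (10.5 to 20.6) and 11.8 (8.62 to 15.7). Hoxa3 lay in 48 of 811 cells and 68 of 1752, and no Aqp4-gated cell held more than 2 of its UMIs. Of 8 members that could be read against the other non-neuronal classes, 6 were called higher, Hoxa2, Hoxa3, Hoxb2, Hoxb3 and Hoxd4 among them, where 13% of all 14279 genes were called higher, and Hoxd1 was called lower, against 12.7%. The ratio was 18.7 (9.14 to 43.2) and 8.93 (5.62 to 14.6) for Hoxa3. Against Slc32a1-gated neurons Hoxa3 could not be told apart at this depth, with a ratio of the neurons to the Aqp4 class of 0.586 (0.240 to 1.24) and 0.756 (0.424 to 1.28). The ratio to the other non-neuronal classes over both libraries was 11.5, 7.17 by the mean of each cell's own level, 17.8 with every gate minimum raised by 1 UMI, and 101 with the C1qa level subtracted. For Hoxa2, Hoxb2, Hoxb3 and Hoxd4 the ratio over both libraries ran from 3.04 for Hoxd4 to 8.77 for Hoxb3. At 2000 UMIs per cell, Hoxa3 was found in 4% (2.69 to 5.69) and 3.25% (2.22 to 4.58) of Aqp4-gated cells, and in 1 of 320 and 2 of 357 C1qa-gated cells, or 0.312% and 0.560%. Of 3 genes added after values were seen to part the Aqp4 class, the ratio of the Hox level with to without a UMI, over both libraries, was 1.20 (0.986 to 1.47) for Slc7a10 and 1.38 (1.09 to 1.74) for Myoc. For Gfap it was 0.936 (0.710 to 1.24) in the untreated library and 1.37 (1.05 to 1.81) in the 4OH-tamoxifen library. The Mog list summed to 14087 and 17132 CPM in Aqp4-gated cells, and the part of that RNA in these values was not tested.

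Hotairm1 and Hoxb3os, antisense RNAs of the clusters, were highest in Aqp4-gated cells. Hotairm1, a non-coding RNA of the Hoxa cluster, had 106 and 103 CPM in Aqp4-gated cells, 57.0 and 63.7 in Pdgfra-gated cells, and 14.4 and 31.8 in C1qa-gated cells. Hoxb3os, on the opposite strand across the 3′ part of Hoxb3 and across Hoxb2, had 254 and 201 in Aqp4-gated cells against 12.3 and 36.9 in Slc32a1-gated neurons, where Hoxb3 itself was highest. Whether the counting separated the strands is not given in the sources used here, so reads of a member and its antisense partner may be mixed. Of the 12 non-coding RNAs of the clusters in the list, 8 were in the files, 4 had at least 20 UMIs, and 3 could be read between neurons and non-neuronal cells, none of which was called. Halr1 had 19.0 and 24.5 CPM in Dcn-gated fibroblasts, from 3 UMIs in each library, and no UMI in gated neurons.

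In oligodendrocyte precursors the members of group 2 led, with 30.0 and 24.4 CPM. In Pdgfra-gated cells Hoxa2 had 16.4 (9.57 to 26.3) and 10.2 (5.45 to 17.5) CPM, Hoxb2 13.5 (7.40 to 22.7) and 14.2 (8.39 to 22.4), and Hoxa3 3.86 (1.05 to 9.90) and 11.8 (6.60 to 19.5). Of 8 members read, Hoxa2 and Hoxb3 were called higher than in the other non-neuronal classes, where 14.6% of all genes were called higher, and Hoxd1 lower, against 12.5%. The call of Hoxb3 rests on 3 and 5 UMIs, and the intervals of its ratio held 1. For Hoxa2 the astrocytes and the precursors could not be told apart at this depth, with a ratio of 0.911 (0.5005 to 1.73) and 1.15 (0.612 to 2.32). For Hoxa3 the ratio of astrocytes to precursors was 5.44 (2.003 to 20.7) and 1.52 (0.861 to 2.86).

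**Figure D5:**
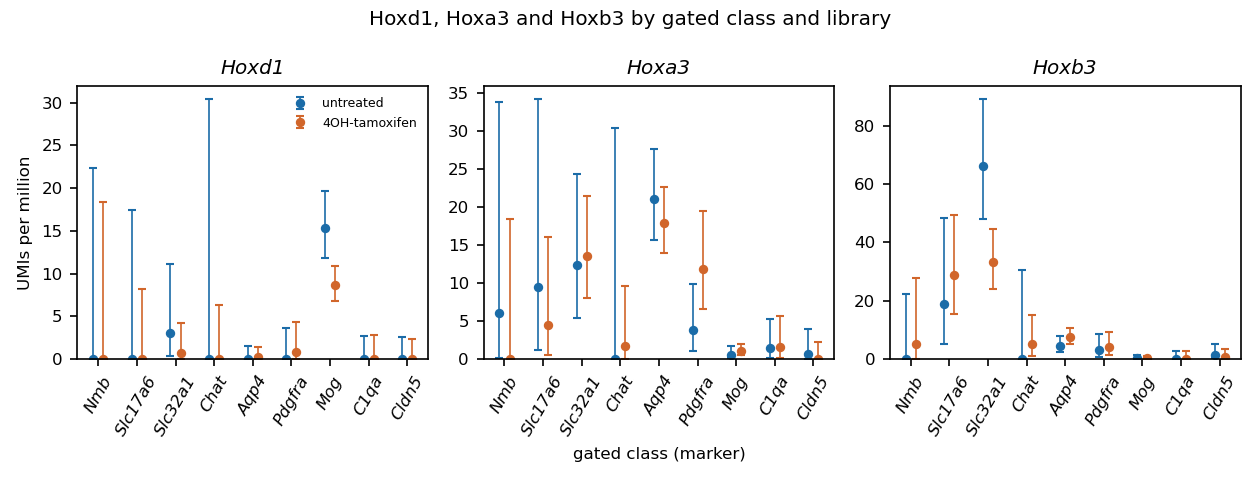
CPM of Hoxd1, Hoxa3 and Hoxb3 (y axes differ) in 9 gated classes, untreated in blue and 4OH-tamoxifen in orange, with exact Poisson 95% intervals. Among these 9 classes each gene is highest in a different one: Hoxd1 in Mog-gated cells (15.4 and 8.65), Hoxa3 in Aqp4-gated cells (21.0 and 17.9), with intervals that overlap those of Slc32a1-gated neurons in both libraries, and Hoxb3 in Slc32a1-gated neurons (66.2 and 33.1), where the 4OH-tamoxifen interval overlaps that of Slc17a6-gated neurons.

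In oligodendrocytes the leading member was Hoxd1. It had 64 UMIs in 48 of 433 Mog-gated cells of the untreated library and 76 UMIs in 71 of 1354 of the 4OH-tamoxifen library, or 15.4 (11.8 to 19.6) and 8.65 (6.82 to 10.8) CPM. The other non-neuronal classes held none and 2 UMIs of Hoxd1, and the gated neurons 2 and 1, so 140 of its 167 UMIs lay in this class and all but 5 of the others in cells of no gate. It was the 1 member of 8 called higher in the Mog class, where 7.92% of all genes were called higher, and its ratio over both libraries was 77.9 (21.2 to 649), against 34.9 in the 4OH-tamoxifen library alone. Hoxd1 reached 20 UMIs in non-neuronal cells only through this class. Its call here, and its calls as lower in the other classes and in neurons, therefore restate that count. In the same class 5 members, Hoxa2, Hoxa3, Hoxb2 and Hoxb3 among them, were called lower, against 30.7% of all genes. The Aqp4 list summed to 387 and 549 CPM in this class. Mog-gated cells were deep, with medians of 9424 and 6492.5 UMIs. At 2000 UMIs per cell, Hoxd1 was found in 2.58% (1.29 to 4.56) and 1.68% (1.05 to 2.53) of Mog-gated cells, in 0% and 0.105% of Aqp4-gated cells, and in none of 320 and 357 C1qa-gated cells, which allows 0.938% and 0.840%.

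Hoxd1 was not even within the Mog class. Genes to part the Mog class were chosen after its values had been seen, so what follows is a description, and the cells with a UMI of each of these genes had more UMIs on average than those without. Mog-gated cells with a UMI of Apod, a lipocalin of mature oligodendrocytes, held 64 and 75 of the Hoxd1 UMIs, or 18.9 and 11.04 CPM, and the 107 and 352 cells without one held 0 and 1. With Opalin, a membrane protein of myelinating cells, Hoxd1 was at 19.6 and 11.2 against 7.58 and 6.14 without, and with Hapln2, a link protein of the node of Ranvier, at 22.7 and 11.5 against 7.49 and 5.73. With Gpr17, a receptor of committed precursors, it was at 10.9 and 6.36 against 22.7 and 11.7. With Klk6, a protease of mature oligodendrocytes, Hoxd1 was at 17.9 and 13.5 against 14.2 and 6.63 (ratio 1.26, 0.727 to 2.14, and 2.03, 1.25 to 3.27), and with Enpp6, an enzyme of newly formed oligodendrocytes, at 16.4 and 9.13 against 12.8 and 7.94 (ratio 1.28, 0.704 to 2.45, and 1.15, 0.707 to 1.90). The interval held 1 for Enpp6 in both libraries and for Klk6 in the untreated library. Haglr, a non-coding RNA beside Hoxd1 on the other strand, had 24.8 and 23.7 CPM in the Mog class, and was also looked up after the values of Hoxd1 had been seen. Hoxd4, on the same cluster, was at 3.12 and 3.19 CPM, and 4 of 119 Mog-gated cells with a Hoxd1 UMI also had one of Hoxd4.

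Another member of group 1 was rare. Hoxb1, which marks the fourth rhombomere in the embryo, had 3 and 2 UMIs, all in cells that entered no gate. In group 4, Hoxd4 had 27 and 23 UMIs in Aqp4-gated cells (10.9 and 5.89 CPM), 13 and 28 in Mog-gated cells, and 10 and 2 in Slc32a1-gated neurons, while Hoxa4 had 10 and 30 UMIs and Hoxb4 11 and 19 over all cells with no gated class above 7 UMIs of either in a library.

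Endothelial cells and microglia held little. In the Cldn5 class the most counted members were Hoxa2, with 5 and 9 UMIs, and Hoxb2, with 7 and 4, and the class had 0.387 (0.242 to 0.590) and 0.282 (0.156 to 0.469) of the level of the other non-neuronal classes for all Hox genes. The Kcnj8 list summed to 1864 and 2067 CPM in this class, against 16630 and 11908 in Kcnj8-gated cells. The part of that RNA in the Hox values was not tested. In the Cldn5 class 3 members, Hoxa3 and Hoxd1 among them, were called lower (19.2% of all genes), and no member higher (12.6%). In the C1qa class Hoxa2, Hoxa3, Hoxb3 and Hoxd1 were called lower (24% of all genes), and none higher (10%). Fibroblasts and pericytes were gated apart and entered no sum over neurons or non-neuronal cells. Kcnj8-gated pericytes, 44 and 33 cells at 75.4 and 64.02 Hox CPM, held 7 and 2 UMIs of Hoxb2 among 9 and 4 Hox UMIs, and Dcn-gated fibroblasts, 38 and 37 cells, held 4 and 5 Hox UMIs, of which 4 and 2 were Hoxa2. Neither of these classes had a UMI of group 1, 4 or 5.

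The libraries differed in the level of some classes, with treatment and batch joined. For all Hox genes, the ratio of the 4OH-tamoxifen to the untreated library was 0.543 (0.410 to 0.718) in Slc32a1-gated cells, 0.750 (0.623 to 0.902) in Aqp4-gated cells, 0.761 (0.595 to 0.979) in Mog-gated cells, 1.07 (0.712 to 1.61) in Pdgfra-gated cells and 2.20 (1.10 to 4.89) in Slc17a6-gated cells. Without the cell of 20 Hox UMIs the last ratio was 1.30, where no UMI of another gate's marker was allowed it was 0.939, and by the mean of each cell's own level it was 3.77. Among single members in Aqp4-gated cells, 1 of 6 read lay 2-fold lower, where 1.7% of all genes did, and none 2-fold higher, against 2.68%. Within 2-fold, Hoxb2 was at 0.621 (0.417 to 0.925) and Hoxd4 at 0.539 (0.295 to 0.977), both clear of 1. The intervals of Hoxa2 at 0.787 (0.499 to 1.25), Hoxa3 at 0.852 (0.587 to 1.24) and Hoxb3 at 1.67 (0.809 to 3.70) held 1. None of 4 members was 2-fold apart in Slc32a1-gated cells (1.5% of all genes lower, 3.64% higher), in Mog-gated cells (1.17% lower, 2.17% higher) or in neurons as a whole (1.4% lower, 3.17% higher), and none of 2 in Pdgfra-gated cells (2.59% lower, 2.11% higher). In neurons as a whole, Hoxb2 was at 0.538 (0.306 to 0.953) and Hoxb3 at 0.581 (0.391 to 0.869), while the intervals of Hoxa2 and Hoxa3 held 1. Hoxd4 had too few UMIs to be read in the neuron classes, but its ratio was 0.0978 (0.0104 to 0.459) in Slc32a1-gated cells, from 2 against 10 UMIs, and 0.179 (0.0410 to 0.621) in neurons, from 4 against 10, both clear of 1. Hoxa5 had 12 UMIs in neurons of the 4OH-tamoxifen library, 10 of them in the cell of 20 Hox UMIs, and 0 in the other. Hoxb3 in Slc32a1-gated cells sat at that line, at 0.50 (0.321 to 0.780), and Hoxd1 in Mog-gated cells at 0.562 (0.398 to 0.797). The libraries also differed in depth, with medians of 7657 and 4016 UMIs in Slc32a1-gated cells, and their part in these ratios was not tested.

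Partners and neighbours of the Hox code were read from lists, against 22.7% of all genes called higher in neurons and 17.9% called lower. Of 9 cofactors that bind DNA with Hox proteins, Meis2, Meis3 and Pbx4 were called higher in neurons and none lower, near the share of all genes for higher. Meis2 had 254 and 316 CPM in Slc32a1-gated neurons and 365 and 319 in Slc17a6-gated neurons, but 12.1 and 9.98 in Nmb-gated neurons, and its ratio of neurons to non-neuronal cells was 5.63 (4.81 to 6.59) and 6.48 (5.80 to 7.23). Of 11 retinoid genes, 8 could be read, and Rarb, Rxra, Cyp26b1 and Crabp1 were called higher in neurons and 2 lower, Aldh1a1 among them, which is 4 and 2 of 8. Cyp26b1, an enzyme that breaks down retinoic acid, the signal that sets Hox borders in the embryo, had 291 and 194 CPM in Slc32a1-gated neurons and 141 and 134 in Aqp4-gated cells, against 12.1 and 15.0 in Nmb-gated cells. Of 16 genes of position outside the clusters, 5 had no UMI in filtered cells, among them Emx2 of the forebrain and Cdx1, Cdx2 and Cdx4 of the tail end. Of the 9 that could be read, En1 and Gbx2 were called higher in neurons, near the share of all genes, and En2, Egr2, Irx2, Irx3 and Irx5 lower. Of 6 Polycomb and trithorax genes, whose products hold Hox clusters silent or active, Ezh2 was called lower in neurons, near the share of all genes, and none higher.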

How the data were processed

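The submitters' processing notes name bcl2fastq 2.18.0.12 and Cell Ranger 2.2.0, and the methods of the study name the 10x Genomics mm10 reference. The authors deposited 1 matrix of raw UMI counts per library, not normalised, of 3767 and 10241 barcodes (18496942 and 34704167 UMIs). Whether counting used strand is not given in the sources used here. From these counts, Scrublet in scanpy 1.11.5 called 6 doublets at a score of 0.512 and 544 at 0.179, and barcodes were filtered as in the study's methods. The cell set is rebuilt and need not be the study's, and the few doublets called in the untreated library leave doublets there.

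Gates needed 2 UMIs of Nmb, Aqp4, Pdgfra, Mog, Cldn5, Dcn or Kcnj8, 5 of C1qa, or 1 of Slc17a6, Slc32a1 or Chat. UMIs were summed per class and library and divided by the total of that class, as CPM (per 1000000 UMIs). Sums have exact Poisson, shares Clopper-Pearson and ratios exact conditional intervals (scipy 1.17.1, numpy 2.4.6, Python 3.11.15). For a count of 0, the limit is that of 3 UMIs or cells. No test across samples was made, since each condition had 1 library. Genes were matched by Ensembl ID to GENCODE annotation of GRCm38.

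All 39 Hox genes are accounted for, those with at least 20 UMIs are described singly as far as they are reported, and other genes come from lists of cofactors, cluster RNAs, position, retinoid and Polycomb or trithorax genes and of genes that part the gates. The members and lists were chosen with earlier results of these data known. The genes that part the Mog and Aqp4 gates, and Haglr, were added after values were seen. On simulated counts with 200 genes changed 4-fold, 95% of intervals held the true ratio for neurons against non-neuronal cells (14729 genes), where the call rule found 100% of genes set higher, 82% of those set lower and 0.647% of unchanged genes. The simulated sums were drawn with the same Poisson error that the intervals assume, so coverage near 95% was built in. Clustering of UMIs in single cells and differences between libraries were not simulated, so these rates need not hold for the data. Results for some genes are not reported here. Alternatives varied filters, gates, depth, background and library.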

Additional observations from a re-analysis of the deposited data

Results flagged for a closer look

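For all Hox genes, the ratio of the 4OH-tamoxifen to the untreated library lay above 1 in Slc17a6-gated neurons, at 2.20, and below 1 in Slc32a1-gated neurons, at 0.543, in Aqp4-gated cells, at 0.750, and in Mog-gated cells, at 0.761. The direction in the Slc17a6 class was not stable: the ratio was 1.30 without the cell of 20 Hox UMIs, 0.939 where no UMI of another gate's marker was allowed, and 3.77 by the mean of each cell's own level. The difference between the classes was not tested. With 1 library per condition, treatment and batch cannot be told apart.

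Cells that passed the filters but entered no gate (975 and 3342 cells) held 32.7 Hox CPM (untreated) and 33.7 Hox CPM (4OH-tamoxifen), above the 5.76 and 12.4 of C1qa-gated microglia. Barcodes removed by the filters (428 and 1683) held 41 and 213 Hox UMIs, or 27.1 and 43.2 CPM, also above the microglia. Neither set enters a comparison between classes.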

How the results depend on the processing

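No paired analysis was possible because each condition had 1 library. Over 50 results and 553 alternatives, 437 values stayed within the counting interval or within 1.5 times the count, 115 moved beyond it, and 1 ratio whose interval lay clear of 1 crossed to the other side: the Slc17a6 ratio of 4OH-tamoxifen to untreated was 0.939 with 0 UMIs of every other gate's marker (in the Nmb gate Slc17a6 was still allowed). Of the library ratios whose interval held 1, that of the Cldn5 class (0.577) rose to 1.54 with thinning, that of the Chat class (0.906) ran from 0.327 to 2.10 and that of the Pdgfra class (1.07) from 0.849 to 1.26. The setting with 0 UMIs of other markers also gave a ratio of neurons to non-neuronal cells of 1.96, a share of groups 1 to 3 in neurons of 91.4% and 1 gene 2-fold higher in neurons, as did 3 of 4 neuron genes. At most 10% mitochondrial UMIs gave 98.8 Hox CPM in neurons, 0 in the Nmb, 123 in the Slc17a6 and 40.6 in the Chat class, a ratio of neurons to non-neuronal cells of 3.86, 78.8% from groups 1 to 3 and 10.8% of cells with a Hox UMI in non-neuronal cells, and an Aqp4 library ratio of 0.973. A minimum raised by 1 UMI gave 89.0 in neurons, 7.57 in the Chat and 82.4 in the Aqp4 class, a ratio of 2.70 and 30.8% of neurons with a Hox UMI. Thinning to 2000 UMIs left 7 genes with 20 UMIs, 91.3 in the Slc32a1 and 5.62 in the Cldn5 class, a ratio of 1.89, shares of 12.6% of neurons and 7.11% of non-neuronal cells, and library ratios of 0.394 (Slc32a1) and, as above, 1.54 (Cldn5). Subtracting the C1qa level gave 69.6 in neurons, 65.4 in the Aqp4, 36.1 in the Pdgfra, 12.6 in the Mog and 3.54 in the Cldn5 class, a ratio of 2.82, 91.6% from groups 1 to 3 in non-neuronal cells and a Mog library ratio of 0.359, and gave no value where nothing was left above it. The mean of each cell's own level gave a ratio of 1.75 and a Slc17a6 library ratio of 3.77. A minimum of 1200 genes gave 2.73 and 13.3% of non-neuronal cells. The untreated library alone had 7 genes with 20 UMIs, 103 in neurons, 47.3 in the Slc17a6, 154 in the Slc32a1, 87.8 in the Aqp4 and 25.7 in the Mog class, a ratio of 2.70, and shares of 42.3% and 15.4%. The 4OH-tamoxifen library alone had 67.6 in neurons, 83.6 in the Slc32a1 and 65.8 in the Aqp4 class, and shares of 23.0% and 10.5%. With at least 2 Hox UMIs the shares were 8.01% and 1.41%. Leaving out the cell of 20 Hox UMIs, an alternative chosen after seeing the data, gave 56.9 in the Slc17a6 class. The cause of these moves was not tested. Depth limits the rare classes most: 3 UMIs stand for 18.2 CPM in the untreated Nmb class.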
